A study of Homo sapiens with 12 samples.

Results

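The mitochondrial chromosome of human cells carries 37 genes, and all 37 were described here in poly-A RNA of transfected HEK293T cells. They were chosen by name and place, as every gene of the poly-A tables whose symbol starts with MT- and that lies on the mitochondrial chromosome, and make up 37 of 67053 genes. They comprise 13 protein genes, 2 ribosomal RNA (rRNA) genes and 22 transfer RNA (tRNA) genes. No measured value entered this rule, although earlier results of these data were known when the genes were chosen. Their levels were taken as FPKM, fragment counts scaled to transcript length and library size, summed over the transcripts of a gene. A level in FPKM is per length, so genes can be set side by side.

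Both strands of mitochondrial DNA are transcribed by the polymerase POLRMT with the factor TFAM into long precursors that span many genes. The tRNAs lie between the protein and rRNA genes, and their excision by RNase P and ELAC2 releases the mRNAs and rRNAs. Most mRNAs are then given a poly(A) tail by MTPAP and are kept stable by LRPPRC and SLIRP, whereas the mRNA of MT-ND6 is known to lack a stable tail, the rRNAs carry short tails, and mature tRNAs end in CCA. The proteins are core subunits of respiratory complexes I, III, IV and V.

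HEK293T is a human embryonic kidney line that carries the SV40 large T antigen. The study asked whether a trigger RNA can lead to the degradation of the microRNA that pairs with it, using cells given a plasmid that expresses GFP with a trigger from BCL2L11 or from TRIM9 in its 3′ UTR, or the GFP control. Each of the 3 groups had 2 poly-A libraries, called biological replicates in the labels, and all cells received 2 µg of plasmid, by polyethylenimine or lipofectamine 3000, and were lysed after 48 hours. Which reagent each culture got is not given in the sources used here. Each p-value measures the spread between these libraries only. In bulk RNA, fewer cells of a type and less RNA per cell cannot be told apart.

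Library titles carry the numbers 1 to 3 for GFP, BCL2L11 and TRIM9 of replicate 1, and 4 to 6 for the same groups of replicate 2. Values below are given in that order within each replicate. Summed coverage came to between 3.40 and 4.52 gigabases per library. The plasmid-borne trigger was seen in its own group, where BCL2L11 stood at 11484 and 11275 FPKM against 5.40 and 6.15 FPKM with GFP, and TRIM9 at 5297 and 3948 FPKM against 1.74 and 2.92 FPKM. All 6 markers of the line (IRS4, LIN28B, VIM, KRT8, KRT18 and NEFM) were at 6.98 FPKM or more in each library. IRS4 stood at 8.61, 9.46 and 16.0 FPKM in the replicate 1 libraries and 65.9, 65.4 and 80.3 FPKM in the replicate 2 libraries. LIN28B too was higher in each replicate 2 library than in any of replicate 1, beside 31.7% of all genes. KRT8 and KRT18 were lower there, beside 18.2% of all genes, and for VIM and NEFM the replicates overlapped. Of the blood markers HBB and PTPRC were at 0 in all libraries. In every library 4 of 5 blood, 3 of 5 fibroblast and 3 of 4 muscle markers stayed under 1 FPKM. The blood marker HBA1 ranged over 2.35 to 7.45 FPKM, the fibroblast marker COL1A1 over 1.27 to 4.02 FPKM and the muscle marker ACTA1 over 2.05 to 5.75 FPKM. COL1A2 reached 1.56 FPKM in BCL2L11 replicate 1 and was at 0 elsewhere.

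Mitochondrial genes took 2.76, 3.19 and 3.75% in the replicate 1 libraries and 3.84, 3.65 and 4.32% in the replicate 2 libraries of all sequenced bases. The GFP library of replicate 1 had the lowest share and the TRIM9 library of replicate 2 the highest. Reads of the trigger plasmids are part of the total, and with BCL2L11 and TRIM9 left out the shares were 2.76, 3.43 and 3.84% in the replicate 1 libraries and 3.84, 3.92 and 4.40% in the replicate 2 libraries. Within the mitochondrial bases the 3 genes of complex IV took between 42.2% and 45.8% per library and the 7 genes of complex I between 25.1% and 27.6%. The rRNAs took 15.8% in the GFP library of replicate 1, 10.8% to 13.03% in the next 4 libraries and the least in TRIM9 replicate 2. The tRNAs took under 1% in each library except that of BCL2L11 replicate 1, where they took 1.71%.

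The 3 subunits of cytochrome c oxidase (complex IV), the enzyme that passes electrons to oxygen, and MT-ATP6 of the ATP synthase had the highest levels among the 37 genes. MT-CO1 (positions 5904 to 7445 of the mitochondrial chromosome, hg38), which holds the catalytic centre, stood at 3146, 3435 and 3826 FPKM in the replicate 1 libraries and 5047, 4818 and 5824 FPKM in the replicate 2 libraries. MT-CO2 (7586 to 8269), the subunit that receives electrons from cytochrome c, stood at 3409, 5169.8 and 5849 FPKM in the replicate 1 libraries and 3894, 3756 and 4601 FPKM in the replicate 2 libraries. MT-CO3 (9207 to 9990) stood at 2559, 3958 and 5339 FPKM in the replicate 1 libraries and 4383, 4352 and 5163 FPKM in the replicate 2 libraries. MT-CO1 was higher in each replicate 2 library than in any replicate 1 library, whereas the replicates overlapped for MT-CO2 and MT-CO3. By FPKM the 3 genes ranked between 1st and 9th of all 67053 genes in each library.

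MT-ATP6 (8527 to 9207), the proton channel subunit of complex V, stood at 3440.0, 3859 and 5267 FPKM in the replicate 1 libraries and 4705, 4445 and 5466 FPKM in the replicate 2 libraries, with both TRIM9 libraries above the other 4. MT-ATP8 (8366 to 8572), which shares its mRNA with MT-ATP6 and overlaps it by 46 bases, stood at 993, 1338 and 981 FPKM in the replicate 1 libraries and 1615, 1549 and 1889 FPKM in the replicate 2 libraries. It ran at between 0.19 and 0.35 of the MT-ATP6 level although both lie on one mRNA, and the TRIM9 library of replicate 1 held the lowest ratio. MT-ATP8 is 207 bases long, and reads over the overlap can be given to either gene. MT-CYB (14747 to 15887), cytochrome b and the one mitochondrial subunit of complex III, stood at 806, 1013 and 1343 FPKM in the replicate 1 libraries and 1423, 1366 and 1529 FPKM in the replicate 2 libraries.

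The 7 subunits of complex I, the NADH dehydrogenase, spread more widely. MT-ND4 (10760 to 12137) led at 1563, 1978 and 2474 FPKM in the replicate 1 libraries and 2525, 2385 and 2929.5 FPKM in the replicate 2 libraries. MT-ND5 (12337 to 14148), the longest of the 13 protein genes at 1812 bases, was the lowest of them by mean at 392, 602 and 605 FPKM in the replicate 1 libraries and 749, 697 and 808 FPKM in the replicate 2 libraries. The GFP library of replicate 1 was the lowest of the 6 for both genes. MT-ND1 (3307 to 4262) ranged over 926 to 1516 FPKM and MT-ND2 (4470 to 5511) over 705 to 1595 FPKM, again lowest in GFP replicate 1.

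MT-ND4L (10470 to 10766), which shares an mRNA with MT-ND4, stood at 659, 570.3 and 485 FPKM in the replicate 1 libraries and 1239, 1161 and 1241 FPKM in the replicate 2 libraries. The replicates did not overlap, and its ratio to MT-ND4 ran from 0.20 in TRIM9 replicate 1 to 0.49 in GFP replicate 2. MT-ND3 (10059 to 10404) stood at 946, 2081 and 1398 FPKM in the replicate 1 libraries and 1035, 999 and 1043 FPKM in the replicate 2 libraries, with the BCL2L11 library of replicate 1 well above the other 5. MT-ND6 (14149 to 14673), the one protein gene read from the light strand, stood at 867, 1204 and 1218 FPKM in the replicate 1 libraries and 808, 754 and 899.6 FPKM in the replicate 2 libraries. Relative to its neighbour MT-ND5 on the other strand it stood at 2.21, 2.00 and 2.01 in the replicate 1 libraries and 1.08, 1.08 and 1.11 in the replicate 2 libraries. Whether libraries kept strand is not given in the sources used here, so MT-ND6 reads cannot be told apart from RNA of the opposite strand over the same bases.

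**Figure D1:**
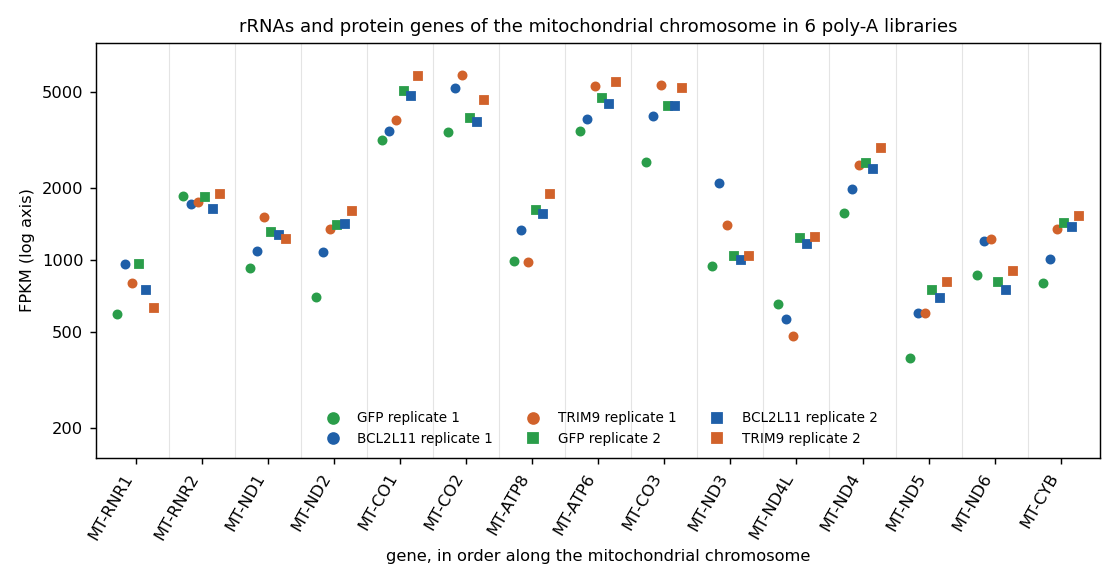
FPKM (log axis) of the 2 rRNA and 13 protein genes in chromosome order, 1 marker per library, with colour for the group and circles or squares for replicate 1 or 2. The MT-CO1, MT-CO2, MT-ATP6 and MT-CO3 markers lie at the top, the MT-RNR2 markers stay between 1626 and 1877 FPKM, and the circles and squares of MT-ND4L and MT-CO1 separate.

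Of the rRNAs, MT-RNR2 (1671 to 3229), the 16S rRNA of the large mitochondrial ribosomal subunit, stood at 1843, 1711 and 1747 FPKM in the replicate 1 libraries and 1836, 1626 and 1877 FPKM in the replicate 2 libraries. In FPKM without rescaling, its highest library was 1.15 times its lowest, against 1.59 to 2.56 times for the 13 protein genes. MT-RNR1 (648 to 1601), the 12S rRNA of the small subunit, stood at 598, 967 and 799.7 FPKM in the replicate 1 libraries and 959, 753 and 634 FPKM in the replicate 2 libraries, and the replicates of each group differed by more than the groups did. MT-RNR2 was between 1.77 and 3.08 times MT-RNR1, although both come from the same precursor.

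tRNA genes are 59 to 75 bases long, shorter than usual sequencing fragments, so a value over one of them can come from the tRNA or from a longer RNA that still holds it, and these cannot be told apart. The 14 tRNAs annotated to the same strand as most mRNAs had mean levels from 5.23 to 246 FPKM with a median of 34.0 FPKM. The 8 tRNAs of the light strand had mean levels from 18.0 to 735 FPKM with a median of 371 FPKM. The highest of those 8 were MT-TA, MT-TN, MT-TC and MT-TY (alanine, asparagine, cysteine and tyrosine), which lie between MT-ND2 and MT-CO1, and MT-TS1 (serine), which directly follows MT-CO1. All of them lie opposite RNA of the other strand, and as for MT-ND6 the strands cannot be told apart there.

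MT-TS1 stood at 534, 1696 and 543 FPKM in the replicate 1 libraries and 629, 661 and 348 FPKM in the replicate 2 libraries. MT-TC stood at 473, 797 and 606 FPKM in the replicate 1 libraries and 776, 679.8 and 633 FPKM in the replicate 2 libraries, and MT-TN ranged over 422 to 740.4 FPKM. MT-TL1 (leucine), which directly follows MT-RNR2, was the highest of the 14 tRNAs of the other strand by mean, at 139, 193 and 219 FPKM in the replicate 1 libraries and 303, 307 and 315 FPKM in the replicate 2 libraries, and was higher in each replicate 2 library than in any of replicate 1. MT-TV (valine), between the rRNAs, stood at only 2.51 to 6.90 FPKM, MT-TW (tryptophan) at 3.09 to 9.67 FPKM, MT-TD (aspartate) at 5.49 to 17.1 FPKM and MT-TF (phenylalanine) at 1.86 to 15.8 FPKM.

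**Figure D2:**
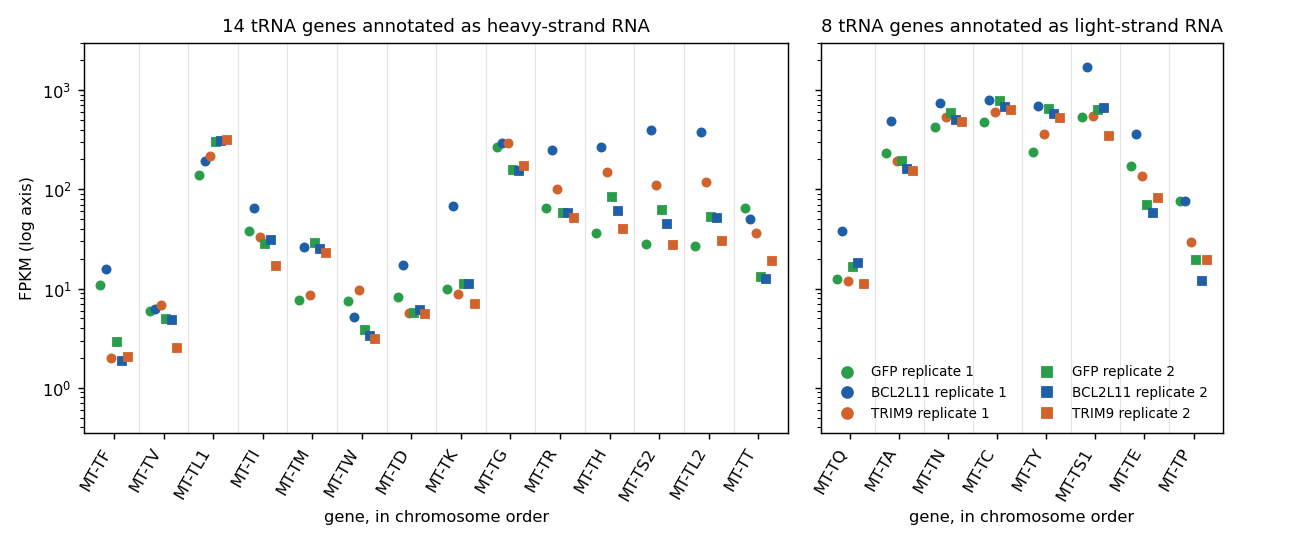
FPKM (log axis) of the 22 tRNA genes, split by annotated strand, with colour for the group and circles or squares for replicate 1 or 2. Blue circles, BCL2L11 replicate 1, are the highest marker for 16 of the 22 tRNAs, and the light-strand tRNAs from MT-TA to MT-TS1 have means of 237 to 735 FPKM.

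The tRNA levels varied between libraries in another way than the mRNA levels. The BCL2L11 library of replicate 1 was the highest of the 6 for 16 of 22 tRNAs and for 1 of 13 protein genes, whereas 14.5% of all 15183 tested genes were highest in it. MT-TS2 (serine) stood at 28.1, 393 and 111 FPKM in the replicate 1 libraries and 62.00, 44.9 and 27.3 FPKM in the replicate 2 libraries. MT-TL2 (leucine) stood at 26.9, 378 and 118 FPKM in the replicate 1 libraries and 52.1, 51.5 and 30.2 FPKM in the replicate 2 libraries. MT-TH (histidine) stood at 36.6, 264 and 148 FPKM in the replicate 1 libraries and 82.9, 61.1 and 39.97 FPKM in the replicate 2 libraries. These 3 tRNAs follow each other between MT-ND4 and MT-ND5, and in each the BCL2L11 library of replicate 1 was highest and the TRIM9 library of replicate 1 next. The BCL2L11 library of replicate 2 lay between the GFP libraries for all 3.

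Set against the lower of the flanking protein or rRNA genes, MT-TS2 stood at 7.17, 65.4 and 18.3% in the replicate 1 libraries and 8.28, 6.45 and 3.38% in the replicate 2 libraries. MT-TR (arginine), between MT-ND3 and MT-ND4L, stood at 9.79, 43.6 and 20.7% in the replicate 1 libraries and 5.63, 5.82 and 4.96% in the replicate 2 libraries, and MT-TK (lysine), between MT-CO2 and MT-ATP8, at 0.994, 5.06 and 0.903% in the replicate 1 libraries and 0.696, 0.714 and 0.367% in the replicate 2 libraries. Both were highest in BCL2L11 replicate 1. MT-TG (glycine) stood at 28.04, 14.2 and 21.1% in the replicate 1 libraries and 15.3, 15.4 and 16.6% in the replicate 2 libraries and was lowest there, and MT-TV and MT-TD stayed under 1% in all libraries. The high tRNA values of that library did not cover all tRNAs.

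**Figure D3:**
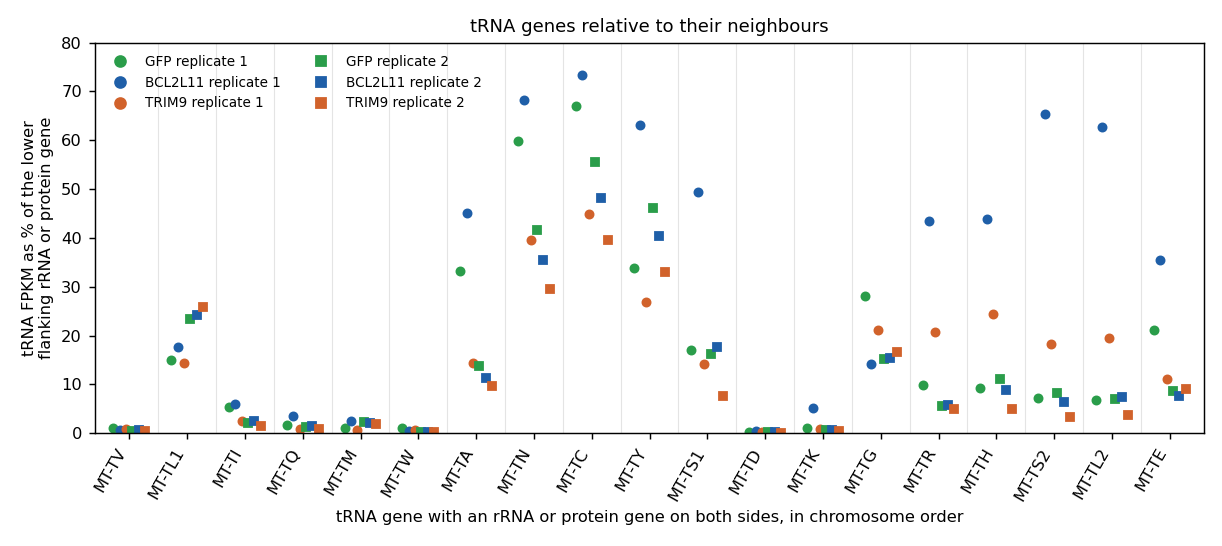
tRNA FPKM as a percentage of the lower flanking rRNA or protein gene, for the 19 tRNAs with such a gene on both sides, 1 marker per library. Blue circles (BCL2L11 replicate 1) reach 65.4% for MT-TS2 and 62.8% for MT-TL2, where the other libraries stay at or below 19.6%.

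For comparison, 5 other RNAs made without a poly(A) tail were set beside the tRNAs after their values were seen. RN7SL1, an RNA of the signal recognition particle, stood at 36.4, 306 and 85.6 FPKM in the replicate 1 libraries and 35.9, 22.8 and 30.4 FPKM in the replicate 2 libraries, and its near-identical copy RN7SL2 at 20.2, 416 and 92.7 FPKM in the replicate 1 libraries and 43.2, 24.05 and 27.1 FPKM in the replicate 2 libraries, so reads can be split between them. Both were highest in BCL2L11 replicate 1, with TRIM9 replicate 1 next. RN7SK, which holds an elongation factor inactive, stood at 202, 182 and 16.6 FPKM in the replicate 1 libraries and 70.04, 41.98 and 7.11 FPKM in the replicate 2 libraries and did not share that order. RMRP, the RNA of RNase MRP, stood at 18.2, 26.8 and 0.469 FPKM in the replicate 1 libraries and 2.36, 2.93 and 0.816 FPKM in the replicate 2 libraries under the higher of its 2 gene identifiers, and RPPH1, the RNA of nuclear RNase P, ranged from 1.68 FPKM in TRIM9 replicate 2 to 15.5 FPKM in BCL2L11 replicate 1. Both were highest in BCL2L11 replicate 1 as well, but next came GFP replicate 1 for RMRP and GFP replicate 2 for RPPH1. Across 173 nuclear genes of under 150 bases with 1 exon, the median log2 deviation from the mean of the 6 libraries was 0.04 in BCL2L11 replicate 1, against 1.13 for the 22 tRNAs. The part of RNA without a tail in the tRNA values was not tested.

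For BCL2L11 against GFP, no mitochondrial gene passed. In limma, 0 of 37 had an adjusted p under 0.05 and 0 an unadjusted p under 0.05, and of all 15183 genes tested 0.00659% passed, which is BCL2L11 itself. The log2 difference was above 0 for 12 of 13 protein genes, with a median of 0.18, and for 19 of 22 tRNAs, with a median of 0.42, against a median of -0.08 over all genes tested. MT-ND3 stood at 1539.7 ± 765 FPKM (SD, n = 2) against 991 ± 62.3 FPKM (SD, n = 2), a log2 difference of 0.54 (SE 0.49), but within the replicates it was 1.14 and -0.05. The protein gene median was -0.17 without GFP replicate 1 and 0.47 without GFP replicate 2.

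Within both replicates 1 of 13 protein genes, MT-ND2, was higher with BCL2L11 (log2 differences of 0.62 and 0.02), as were 10.8% of all genes. Higher in both were also 5 tRNAs, MT-TL1, MT-TI, MT-TQ, MT-TS1 and MT-TD. Lower in both were MT-ND4L, MT-RNR2 and 3 tRNAs (MT-TW, MT-TT and MT-TP), beside 40.2% of all genes. With FPKM rescaled by TMM (trimmed mean of M values) the count of protein genes higher in both became 12 of 13, beside 26.3% of all genes at that scaling. It was 2 of 13, beside 9.95%, when rescaled to the genes not encoded in mitochondria. The groups did not overlap for 2 tRNAs that were higher, MT-TQ (glutamine) and MT-TS1, beside 4.44% of all genes, and for MT-RNR2, which was lower, beside 12.3%. With either rescaling the groups overlapped for MT-RNR2, and the counts of separated protein and tRNA genes changed with the scaling. The tRNAs of largest difference were MT-TL2 at 1.87 (SE 0.99), MT-TS2 at 1.65 (SE 1.06) and MT-TK at 1.32 (SE 0.73). Within the replicates these stood at 3.76 and -0.02, at 3.76 and -0.46 and at 2.66 and -0.02, so the difference lay in replicate 1. Without BCL2L11 replicate 1 the tRNA median was -0.03.

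For TRIM9 against GFP, again 0 of 37 genes passed in limma and 0 had an unadjusted p under 0.05, beside 0.00659% of all genes, which is TRIM9 itself. The log2 difference was above 0 for 12 of 13 protein genes with a median of 0.37 and for 10 of 22 tRNAs with a median of -0.08, against -0.04 over all genes tested. MT-CO3 stood at 5251 ± 125 FPKM (SD, n = 2) against 3471 ± 1290.0 FPKM (SD, n = 2), a difference of 0.65 (SE 0.52) with 1.06 and 0.24 within the replicates. MT-ND2 stood at 0.57 (SE 0.48), MT-CO2 at 0.51 (SE 0.50) and MT-ATP6 at 0.42 (SE 0.50). None of these 4 passed the threshold.

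With TRIM9, 10 of 13 protein genes were higher within both replicates, all except MT-ND1, MT-ATP8 and MT-ND4L, beside 16.1% of all genes. The groups did not overlap for 5 of them, MT-CO2, MT-ATP6, MT-CO3, MT-ND3 and MT-ND6, beside 6.66%, and for 8 with TMM rescaling, beside 10.6%, and 3 with rescaling to genes not encoded in mitochondria, beside 5.7%. Higher within both replicates were also 2 tRNAs, MT-TL1 and MT-TG. Without GFP replicate 1, the library of lowest mitochondrial share, the protein gene median was 0.07. Lower without overlap were MT-TF, MT-TQ and MT-TK, beside 11.2%. Lower within both replicates were 6 tRNAs, those 3 with MT-TI, MT-TA and MT-TD, beside 30.5%. Both trigger comparisons share the GFP libraries. With a term for the replicate 0 of 37 genes passed in each of the 3 comparisons in limma, beside 0.00659% of all genes for BCL2L11 against GFP, 0.0395% for TRIM9 against GFP and 0.0198% for BCL2L11 against TRIM9.

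**Figure D4:**
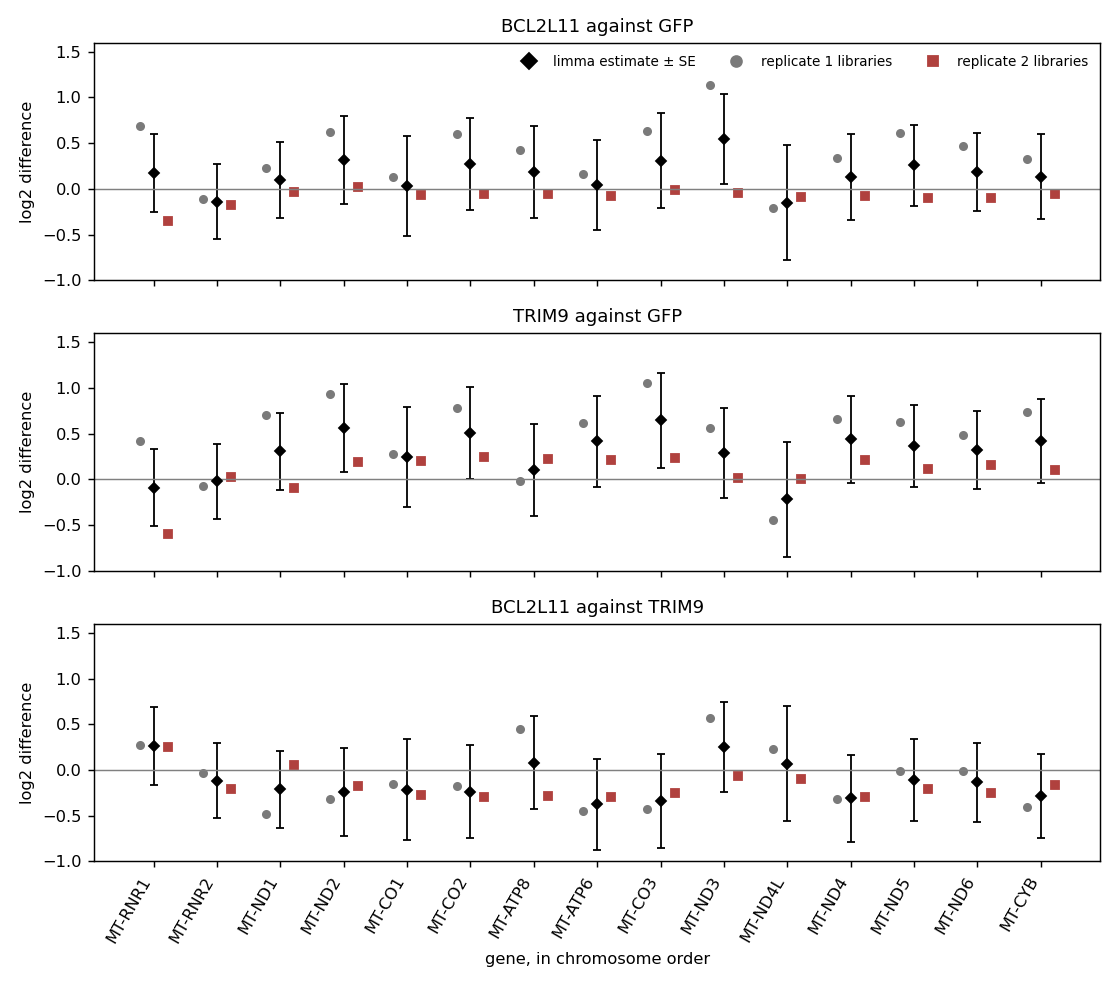
log2 difference of the rRNA and protein genes in chromosome order for the 3 comparisons, with black diamonds for the limma estimate, bars for its standard error, and grey circles and red squares for the difference within replicate 1 and replicate 2. For BCL2L11 against GFP most circles lie above 0 and the squares near it, as for MT-ND3 at 1.14 and -0.05, and for TRIM9 against GFP both lie above 0 for 10 of 13 protein genes.

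For BCL2L11 set directly against TRIM9, in limma 0 of 37 genes passed, beside 0.0132% of all genes, the 2 trigger genes. The unadjusted p was under 0.05 for 2 of 37, MT-TS1 at 1.28 (SE 0.54) and MT-TQ at 1.12 (SE 0.39), beside 0.645% of all genes. Within both replicates 14 of 22 tRNAs were higher with BCL2L11, beside 22.6% of all genes, and 9 of 13 protein genes were lower, beside 35.9%. The groups did not overlap for 7 tRNAs that were higher with BCL2L11 (MT-TQ, MT-TM, MT-TC, MT-TY, MT-TS1, MT-TD and MT-TK), beside 5.72%, and for 4 genes that were lower (MT-RNR2, MT-ATP6, MT-CO3 and MT-ND4), beside 8.44%. With TMM rescaling or rescaling to genes not encoded in mitochondria the groups overlapped for MT-RNR2. The tRNA count stayed at 7 with each rescaling, whereas the count of separated protein genes changed. The median was 0.71 for tRNAs and -0.21 for protein genes, against -0.04 over all genes tested. Without BCL2L11 replicate 1 the medians were -0.04 for tRNAs and -0.10 for protein genes. That sets BCL2L11 replicate 2 alone against the TRIM9 libraries of both replicates, so differences between the replicates enter it.

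The share of sequenced bases, on 2 libraries a group, was 3.30% ± 0.765 (SD, n = 2) for GFP, 3.42% ± 0.326 (SD, n = 2) for BCL2L11 and 4.03% ± 0.401 (SD, n = 2) for TRIM9. The exact two-sided permutation test, which cannot go below p = 0.333 here, gave p = 1 for BCL2L11 against GFP, p = 0.667 for TRIM9 against GFP and p = 0.333 for BCL2L11 against TRIM9, the only pair whose libraries did not overlap. With BCL2L11 and TRIM9 left out of the total these 2 groups overlapped as well (exact permutation p = 0.667), as they did for the sum of FPKM (exact permutation p = 0.667). The difference of BCL2L11 from GFP, 0.117 percentage points, was 0.372 without the trigger genes in the total and 0.597 by the sum of FPKM, and that of TRIM9 from GFP, 0.731 percentage points, was 0.190 without GFP replicate 1. The log2 ratio of MT-ND6 to the 12 protein genes of the other strand gave p = 1, p = 0.667 and p = 1 by the same exact permutation test, with overlap in each. The log2 ratio of the mean rRNA to the mean protein gene level was -0.55 ± 0.26 (SD, n = 2) for GFP, -0.78 ± 0.18 (SD, n = 2) for BCL2L11 and -1.001 ± 0.094 (SD, n = 2) for TRIM9. TRIM9 did not overlap either other group, each at the smallest exact p = 0.333. Computed from sequenced bases, the ratio of BCL2L11 overlapped that of TRIM9 (exact permutation p = 0.667). The difference of TRIM9 from GFP was -0.46, and -0.27 without GFP replicate 1, and that of BCL2L11 from TRIM9 was 0.22, and 0.10 without BCL2L11 replicate 1.

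More genes passed between the replicates than between the groups, in a comparison chosen after the data were seen. With a term for the replicate in limma, 9 of 37 mitochondrial genes differed between replicate 2 and replicate 1, beside 32.9% of all genes, against 24.3% of the 37. The labels do not say what separates the replicates. Higher in replicate 2 were MT-ND4L at 1.10 (SE 0.16, limma adjusted p = 0.0115), MT-CO1 at 0.59 (SE 0.15, limma adjusted p = 0.0348) and MT-TL1 at 0.77 (SE 0.17, limma adjusted p = 0.0221). Lower were 6 tRNAs, MT-TT (threonine) at -1.68 (SE 0.27, limma adjusted p = 0.0124), MT-TP (proline) at -1.68 (SE 0.37, limma adjusted p = 0.0231), MT-TE (glutamate) at -1.55 (SE 0.36, limma adjusted p = 0.0258), MT-TG at -0.82 (SE 0.14, limma adjusted p = 0.0131), MT-TW at -0.90 (SE 0.20, limma adjusted p = 0.0225) and MT-TI (isoleucine) at -0.81 (SE 0.17, limma adjusted p = 0.0197).

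MT-TT, which lies next to MT-CYB, stood at 65.1, 50.03 and 36.5 FPKM in the replicate 1 libraries and 13.1, 12.6 and 18.9 FPKM in the replicate 2 libraries. The replicates did not overlap for 9 tRNAs that were lower in replicate 2, MT-TT, MT-TP and MT-TE among them, beside 18.2% of all genes. They did not overlap either for MT-TL1 and 6 protein genes that were higher (MT-ND2, MT-CO1, MT-ATP8, MT-ND4L, MT-ND5 and MT-CYB), beside 31.7%, and the protein genes were 2 with TMM rescaling, beside 25.2% of all genes, and 10 with rescaling to genes not encoded in mitochondria, beside 47.1%. Of the tRNAs 9 were lower and 1 higher with TMM rescaling, and 5 were lower and 4 higher with the other. The share of all genes that were lower was not computed at those scalings. MT-ND4L averaged 571 ± 86.7 FPKM (SD, n = 3) in replicate 1 and 1213 ± 45.7 FPKM (SD, n = 3) in replicate 2. The median difference was 0.40 for protein genes, -0.81 for tRNAs and 0.00 for the rRNAs, against 0.06 over all genes tested. With 1 library left out the tRNA median ran from -0.98 (without GFP replicate 1 or 2) to -0.39 (without BCL2L11 replicate 1 or 2). It was -0.99 with TMM rescaling and -0.45 with rescaling to genes not encoded in mitochondria. MT-TE, MT-TP and MT-TT passed in each variant that gave calls, whereas MT-CO1 lost its call with TMM rescaling and when any 1 library was left out. Rescaling moved the median of all genes from 0.06 to -0.09 with TMM and to 0.35 with the genes not encoded in mitochondria, and the calls in limma then split into 2 higher and 11 lower, beside 34.8% of all genes called, and into 13 higher and 5 lower, beside 43.2%.

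**Figure D5:**
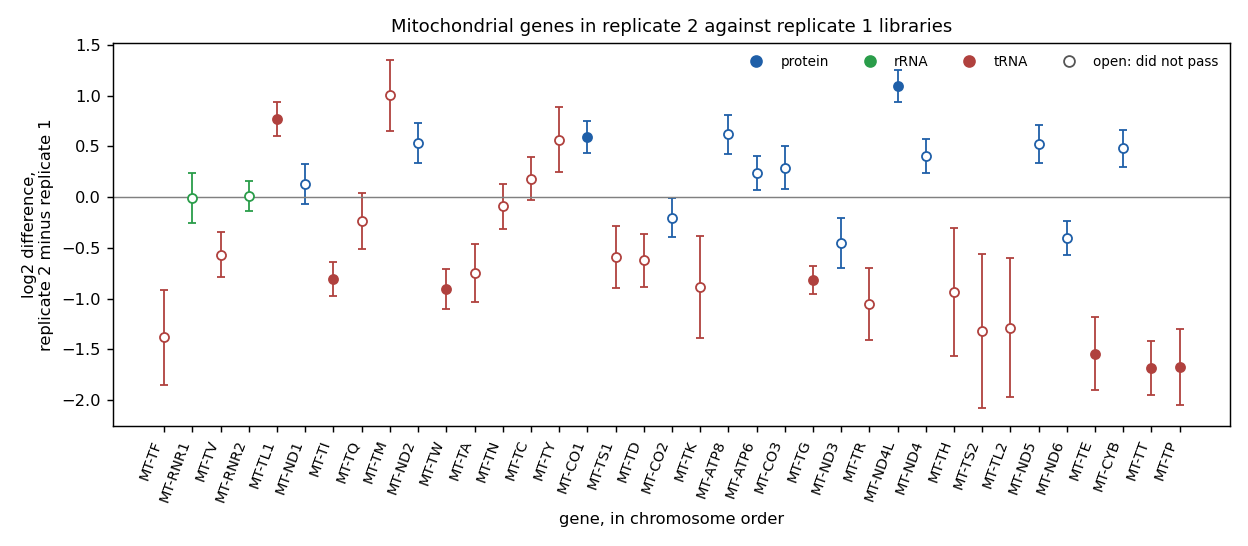
log2 difference of each of the 37 genes between the replicate 2 and the replicate 1 libraries from limma, in chromosome order, with bars for the standard error, colour for the RNA type and filled markers for an adjusted p under 0.05. Filled markers above 0 are MT-TL1, MT-CO1 and MT-ND4L, and 6 filled tRNA markers lie below 0.

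The nuclear genes that make, cut, tail and modify mitochondrial RNA were looked at as a list of 61 measured genes. For the triggers 0 of 61 passed in any comparison in limma and 0 had an unadjusted p under 0.05. Of all genes 0.547% had such a p for BCL2L11 against GFP, 1.15% for TRIM9 against GFP and 0.645% for BCL2L11 against TRIM9. The medians of the 61 were -0.15, -0.15 and -0.01 in that order, against -0.08, -0.04 and -0.04 over all genes tested. PRORP, the nuclease subunit of RNase P, had the lowest p in 2 comparisons, at -0.54 (SE 0.38) for BCL2L11 against GFP and -0.89 (SE 0.38) for BCL2L11 against TRIM9. It stood at 9.96, 4.41 and 9.10 FPKM in the replicate 1 libraries and 4.65, 4.38 and 8.93 FPKM in the replicate 2 libraries, and the BCL2L11 libraries of both replicates were below the TRIM9 libraries. Against TRIM9, MTERF4, FASTKD2 and GTPBP3 followed at -0.40, -0.39 and -0.29. TRIT1 had the lowest p for TRIM9 against GFP at -0.51 (SE 0.34), followed by SUPV3L1 at -0.37, TOP3A at -0.40 and MTERF4 at 0.39. For BCL2L11 against GFP, FASTKD2 at -0.43, GRSF1 at -0.32 and SSBP1 at 0.37 followed PRORP.

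Between the replicates 19 of 61 passed, 31.1% of the list beside 32.9% of all genes. Of these, 14 were higher in replicate 2, namely DNA2, TFAM, FASTKD3, PDE12, ANGEL2, MTERF1, PTCD3, TRNT1, PNPT1, RNASEH1, TFB2M, NSUN3, PTCD2 and TRMT61B, and 5 were lower, namely MRM3, HSD17B10, MRM2, MRPL12 and SLIRP. This split depended on the scaling. With TMM rescaling 23 of 61 passed in limma, 9 higher and 14 lower, beside 34.8% of all genes. Rescaled to genes not encoded in mitochondria 31 passed, 28 higher and 3 lower, beside 43.2%. With no filter 0 of 61 passed, as did 0 of all genes. TFAM, which packs mitochondrial DNA and starts transcription, stood at 22.1, 16.2 and 16.8 FPKM in the replicate 1 libraries and 37.96, 34.6 and 36.3 FPKM in the replicate 2 libraries, a difference of 0.95 (SE 0.14, limma adjusted p = 0.0116). SLIRP, the partner of LRPPRC, stood at 431, 259.6 and 180.4 FPKM in the replicate 1 libraries and 134, 145 and 128 FPKM in the replicate 2 libraries, a difference of -1.004 (SE 0.25, limma adjusted p = 0.0296). TFAM was higher and SLIRP lower in each replicate 2 library than in any of replicate 1. LRPPRC stood at 47.1, 31.1 and 33.2 FPKM in the replicate 1 libraries and 51.04, 47.7 and 53.8 FPKM in the replicate 2 libraries and did not pass.

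Copies of mitochondrial genes in the nuclear genome (pseudogenes) can share reads with their originals. Of 411 such copies 333 were at 0 in all libraries and 6 passed the filter on low values, all within positions 629062 to 634922 of chromosome 1 (hg38). MTATP6P1 (633696 to 634376) stood at 273, 212 and 439 FPKM in the replicate 1 libraries and 432, 412 and 536 FPKM in the replicate 2 libraries, which is 5.50% to 9.80% of MT-ATP6. MTND2P28 stood at 50.9, 45.1 and 65.3 FPKM in the replicate 1 libraries and 145, 148 and 164 FPKM in the replicate 2 libraries, 4.15% to 10.5% of MT-ND2, and MTCO1P12 and MTND1P23 at 1.61% to 2.33% and 0.165% to 1.41% of their originals. Copies summed to 0.875% to 2.04% of the mitochondrial total. The values of MT-ATP6 and MT-ND2 are uncertain by the reads that could belong to either place.

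The authors' deposited tables, a different calculation from the fit above, list part of the genes. For BCL2L11 against GFP the authors' deposited table has 35 of the 37 genes and no q-value under 0.05. In that deposited table of the authors, all 13 protein genes have a fold above 1 (46.6% of all its genes do), and 3 have an unadjusted p under 0.05, MT-ND5 (log2 fold 0.72), MT-CO3 (0.69) and MT-ATP8 (0.54), beside 3.52% of its genes. For TRIM9 against GFP the authors' deposited table lists 34 of the 37 with no q-value under 0.05. All 13 protein genes have a fold above 1 in that deposited table of the authors as well (47.0% of all its genes do), and 1 has an unadjusted p under 0.05, MT-ATP6 (log2 fold 0.51), beside 2.48% of its genes.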

How the data were processed

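Poly-A RNA of 6 HEK293T libraries (3 groups of 2) was used. The small RNA tables hold microRNAs and were not used here. The tools named in the submitters' processing notes, with no role, are DESeq2 1.20.0, StringTie 2.1.3, STAR and cutadapt 3.4, with the build hg38. Annotation release, strandedness and treatment of reads with several matches are not given in the sources used here. Deposited transcript tables give, per the file headers, coverage as a signal (mean read depth per base) and FPKM. The authors' deposited gene tables hold a p-value, a q-value, a fold change as a ratio and its log2, made by a tool that is not given in the sources used here.

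Gene FPKM was summed over transcripts, and sequenced bases were coverage times transcript length. The fit used limma 3.58.1 on log2(FPKM + 1) (R 4.3.3, group only, trend, all 6 libraries) for the 15183 of 67053 genes with at least 1 FPKM in at least 2 libraries, which include all 37 members. Fold changes are on that scale and understate those of low genes. Tests were two-sided with Benjamini-Hochberg adjustment over all genes tested and a threshold of 0.05. The limma script was tested on simulated data. Single values were compared by exact permutation tests. TMM factors were computed on FPKM without weights, trimming 30% of the log ratios and 5% of the levels.

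Members and gene lists were chosen with earlier results of these data known. By rule all 37 members were covered, with up to 4 nuclear factors of lowest p per comparison, each factor that passed, and the 4 nuclear copies of highest mean level. Of 62 factors listed, 61 genes were found, since FASTKD4 is an older name of TBRG4. RN7SL1, RN7SL2, RN7SK, RMRP, RPPH1, the short nuclear genes and the comparison of replicates were added after values were seen. Alternatives were TMM rescaling, rescaling to genes not encoded in mitochondria, a pseudocount of 0.1, filters of 5 FPKM or none, no trend, the compared groups alone, a replicate term, assembled chromosomes only, other units of the share and ratios, and leaving out each library. RefSeq sequences of the mitochondrial genes were not used here.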

Additional observations from a re-analysis of the deposited data

How the results depend on the processing

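In each of 15 settings run for each trigger comparison, 0 of 37 mitochondrial genes and 0 of 61 nuclear factors passed in limma. Without BCL2L11 replicate 2 that group is its replicate 1 library alone, so only differences are given. The tRNA median was then 1.09 for BCL2L11 against GFP and 1.48 for BCL2L11 against TRIM9. The protein gene median was 0.08 and -0.41. For TRIM9 against GFP the lowest member adjusted p in limma was 0.774, with the replicate term. With a replicate block (the replicate as a term) the lowest adjusted p was 0.824, 0.774 and 1 for BCL2L11 against GFP, TRIM9 against GFP and BCL2L11 against TRIM9, and 0, 0 and 0 members passed, while 1, 6 and 3 of all genes did. With that term 1, 1 and 4 of 37 members had an unadjusted p under 0.05 in limma, in the same order of comparisons. Of all genes 3.58%, 6.31% and 3.01% did. Title numbers run from 1 to 6 and do not by themselves pair libraries, although deviations from the group means correlated at 0.49 to 0.83 over all genes and at 0.33 to 0.70 over the 37.

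With 1 library left out at a time, the protein gene median ran from -0.17 (without GFP replicate 1) to 0.47 (without GFP replicate 2) for BCL2L11 against GFP, and from 0.0734 (without GFP replicate 1) to 0.61 for TRIM9 against GFP. The share difference for BCL2L11 against GFP, 0.117 percentage points, ran from -0.424 to 0.658 and was below 0 without GFP replicate 1 and, at -0.113, without BCL2L11 replicate 2. The difference in the log2 ratio of MT-ND6 to the other protein genes changed sign in all 3 comparisons. It ran from -0.39 to 0.40 for BCL2L11 against GFP, below 0 without BCL2L11 replicate 1 (-0.39) or GFP replicate 2 (-0.34). It ran from -0.43 to 0.25 for TRIM9 against GFP, above 0 without TRIM9 replicate 2 (0.19) or GFP replicate 1 (0.25), and from -0.30 to 0.48 for BCL2L11 against TRIM9, below 0 without BCL2L11 replicate 1 (-0.30) or TRIM9 replicate 2 (-0.19). The log2 ratio itself stood at -0.91, -0.86 and -1.06 in the replicate 1 libraries and -1.60, -1.64 and -1.63 in the replicate 2 libraries. With 1 library left out, the compared groups no longer hold the same replicates. The cause of the sign changes was not tested.

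For replicate 2 against replicate 1, settings added after the data were seen gave between 0 and 18 members in place of 9, given here with the share of all genes called: 18 members with rescaling to genes not encoded in mitochondria (43.2% of all genes), 13 with TMM (34.8%), and 4 to 17 with 1 library left out, 17 without GFP replicate 1 (54.7%) or 2 (54.7%) and 4 without TRIM9 replicate 1 (9.90%) or 2 (8.48%). With no filter 0 members and 0 of 39154 genes passed in limma, and 8 members and 8361 genes had an unadjusted p under 0.05. Leaving out 1 library there also takes its group's other library out of the replicate difference. Reads per gene were not used here, and with 2 libraries a group the SE of a tRNA difference for BCL2L11 against GFP ran from 0.39 (MT-TQ) to 1.06 (MT-TS2).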

Other observations

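The 15 pairs of libraries were compared over the 2 rRNA and 13 protein genes after the data were seen, as values only. The closest pair was GFP replicate 2 and BCL2L11 replicate 2, with a median absolute log2 difference of 0.07, and the other 2 pairs within replicate 2 came next at 0.19 and 0.25. The farthest pair was GFP replicate 1 and TRIM9 replicate 2 at 0.89, and the 2 GFP libraries stood at 0.68, the second farthest. Over all genes tested the closest pair was BCL2L11 replicate 2 and TRIM9 replicate 2 at 0.15 and the farthest TRIM9 replicate 1 and TRIM9 replicate 2 at 0.52. Over the 22 tRNAs the 5 pairs that hold BCL2L11 replicate 1 stood at 1.01 to 1.67, above all other pairs, which stood at 0.14 to 0.78. No 2 libraries held identical values.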
